A study of Mus musculus with 4 samples.

Results

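The arginine methyltransferase family was described in microglia from 4 mice, 2 PRMT1FL and 2 PRMT1Cx3cr1-KO, each profiled as 1 single-cell RNA library. The family was taken as Prmt1, the gene deleted in this study, and the 7 paralogs Prmt2, Prmt3, Carm1, Prmt5, Prmt6, Prmt7 and Prmt9. These are 8 of the 32285 genes counted, found by their symbols. PRMT1FL mice carried loxP-flanked (floxed) Prmt1 alleles and are called wild type in the sample labels. PRMT1Cx3cr1-KO mice carried the same floxed alleles and Cx3cr1-CreERT, a tamoxifen-inducible Cre recombinase expressed from Cx3cr1, a fractalkine receptor gene of microglia and other macrophages. Mice of both genotypes were injected with tamoxifen, which starts recombination, at an age of 5 to 6 weeks. After an interval they ate 0.2% cuprizone, a copper chelator that kills oligodendrocytes and strips myelin, for 5 weeks. The sample labels, unlike the methods, put that age at the start of the diet. The genotypes thus differ in the recombinase allele as well as in Prmt1. Cells were sorted for CD45 and CD11b, so border macrophages and other myeloid cells could pass the sort. Each mouse is 1 replicate, and a comparison of 2 against 2 values cannot reach an exact two-sided permutation p below 0.333, so the tests given here are models fitted across all genes.

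Protein arginine methyltransferases move a methyl group from S-adenosylmethionine onto arginine side chains of histones, RNA-binding proteins and signalling proteins. Type I enzymes place both methyl groups on the same nitrogen (asymmetric dimethylarginine), type II enzymes place them on different nitrogens (symmetric dimethylarginine), and type III activity stops after the first. PRMT1 accounts for most asymmetric dimethylation in mammalian cells, and substrates left free by its loss can be taken up by other family members. The values below are levels of messenger RNA, not of protein or enzyme activity.

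The 4 libraries held 8284 to 11554 barcodes and 76943248 to 99559644 counted molecules (UMIs). After limits on genes and mitochondrial share, 7651 to 10747 cells per mouse were microglia by their markers (93.6 to 96.5% of the cells kept), with a median of 6242 to 7069 UMIs per cell. All 10 microglial markers were detected in the gated cells of every mouse, but these are the genes of the gate itself. Their detection is therefore no separate check of identity. Any pair of libraries shared 31 to 46 barcodes, 0.374 to 0.555% of the smaller library. Doublets were not removed beyond these limits and the marker gate. The summed level of 8 border macrophage markers in the gated microglia was 20.2 and 19.9 CPM (UMIs of a gene per 1000000 UMIs of the sum) in PRMT1FL mice, against 36.3 and 100.8 in PRMT1Cx3cr1-KO mice. It therefore moved with genotype and was highest in PRMT1Cx3cr1-KO replicate 2. Its part in the results below was not tested.

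Prmt1 lies on chromosome 7 of mm10 at chr7:44975989-44986568 on the minus strand (GENCODE vM21), with up to 11 exons in its coding transcripts. Prmt3 lies on the same chromosome at chr7:49778346-49858265 on the plus strand. Prmt7 and Prmt9 share chromosome 8, at chr8:106210936-106252794 and chr8:77549397-77581338, both on the plus strand. Carm1 is at chr9:21546894-21592623 on the plus strand, and Prmt2, Prmt5 and Prmt6 are on the minus strand at chr10:76207222-76237865, chr14:54507187-54517525 and chr3:110246109-110250998. Prmt6 overlaps the antisense gene C130013H08Rik, Prmt7 overlaps Smpd3 and Carm1 overlaps Yipf2, each on the opposite strand and each also counted. Prmt1, Prmt2, Prmt3, Prmt5 and Prmt9 overlap no other counted gene.

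The promoters of Prmt1 and Prmt5 are shown because these were the members that were higher in both groups of cycling microglia described below. RefSeq promoter sequence (GRCm38.p6) was at hand for 7 of the 8 members, all but Carm1. The 250 bases before the RefSeq start of each gene are printed on the gene's own strand, 5′ to 3′, with CCAAT or its reverse complement ATTGG in capitals. The Prmt1 stretch is chr7:44986421-44986670 and the Prmt5 stretch is chr14:54517471-54517720, both on the minus strand, and the start that GENCODE gives for each gene falls inside its stretch.
Prmt1: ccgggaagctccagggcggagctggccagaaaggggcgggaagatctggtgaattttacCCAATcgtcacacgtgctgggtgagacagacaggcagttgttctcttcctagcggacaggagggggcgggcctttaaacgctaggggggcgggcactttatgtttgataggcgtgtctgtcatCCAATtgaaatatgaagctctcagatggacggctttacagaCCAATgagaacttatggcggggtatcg
Prmt5: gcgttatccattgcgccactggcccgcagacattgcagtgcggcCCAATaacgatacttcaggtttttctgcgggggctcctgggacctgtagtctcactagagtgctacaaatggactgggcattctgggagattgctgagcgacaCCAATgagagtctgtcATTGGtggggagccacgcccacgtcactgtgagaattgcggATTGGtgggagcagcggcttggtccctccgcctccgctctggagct

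Prmt1 held 3 matches, whose first bases lay at positions -191, -68 and -27 from the start. Prmt5 held 4, at positions -206, -103, -87 and -46. The Prmt1 matches at -68 and -27 and the Prmt5 match at -46 lay downstream of the GENCODE start, inside the gene. CCAAT is the core of the sequence bound by the factor NF-Y, and it is common near the starts of cell cycle genes. Prmt2 and Prmt3 held 1 match each, and the stretches of Prmt6, Prmt7 and Prmt9 held 0. Over 32851 promoters of the same length, 33.8% held at least 1 match on either strand, 2.79% at least 3 and 0.84% at least 4. The letters TTTGAA and TTTGGCGC were searched on both strands, as 1 spelling each of the CHR and E2F elements of cell cycle genes. They occurred in none of the 7 stretches, against 16.0% and 0.417% of all promoters. Other spellings were not searched, so the elements themselves are not shown to be absent. A match describes the letters only and is no measurement of binding.

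The targeted gene was read first. Prmt1 measured 90.9 and 84.0 CPM in the microglia of PRMT1FL mice 1 and 2, and 70.6 and 70.7 in PRMT1Cx3cr1-KO mice 1 and 2, from 5618 to 7818 Prmt1 UMIs per mouse. Both knockout mice were below both controls. The fitted difference was a log2 fold change of -0.38 ± 0.07 (SE), a ratio of 0.767 with a 95% interval of 0.686 to 0.858. Its adjusted p was 0.0636 (edgeR's quasi-likelihood test, Benjamini-Hochberg over 13814 genes), above the threshold of 0.05, so it did not pass. In this comparison 0.956% of all genes tested passed. CPM are scaled by library totals, and the fits by TMM, edgeR's trimmed mean of log ratios. With library totals in the fit the median of all genes was at 0.07 on the log2 scale, against -0.004 with TMM. Prmt1 was then at -0.31. The log2 difference stayed between -0.45 and -0.31 in 15 alternative settings. The call did not: without PRMT1Cx3cr1-KO replicate 1 the adjusted p of Prmt1 was 0.0059 (16.2% of genes passed), without PRMT1Cx3cr1-KO replicate 2 it was 0.0263 (4.52% passed), and without PRMT1FL replicate 1 or 2 it was 0.493 and 0.42.

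The library method copies the 3′ end of polyadenylated RNA, so a Prmt1 UMI is not shown to come from an intact transcript. Which exons the floxed allele removes is not given in the sources used here. A transcript that has lost internal exons and keeps its 3′ end would still be counted. Prmt1 UMIs in PRMT1Cx3cr1-KO mice therefore cannot be read as the share of cells that escaped recombination. By immunoblot of isolated PRMT1Cx3cr1-KO microglia, the paper reports that PRMT1 protein was lost and its histone mark H4R3me2a was reduced. That is a measure of protein, while the values here are RNA. Cx3cr1, the gene that drives the recombinase, measured 1445 and 1540 CPM in PRMT1FL mice, against 846 and 836 in PRMT1Cx3cr1-KO mice, with no overlap.

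**Figure D1:**
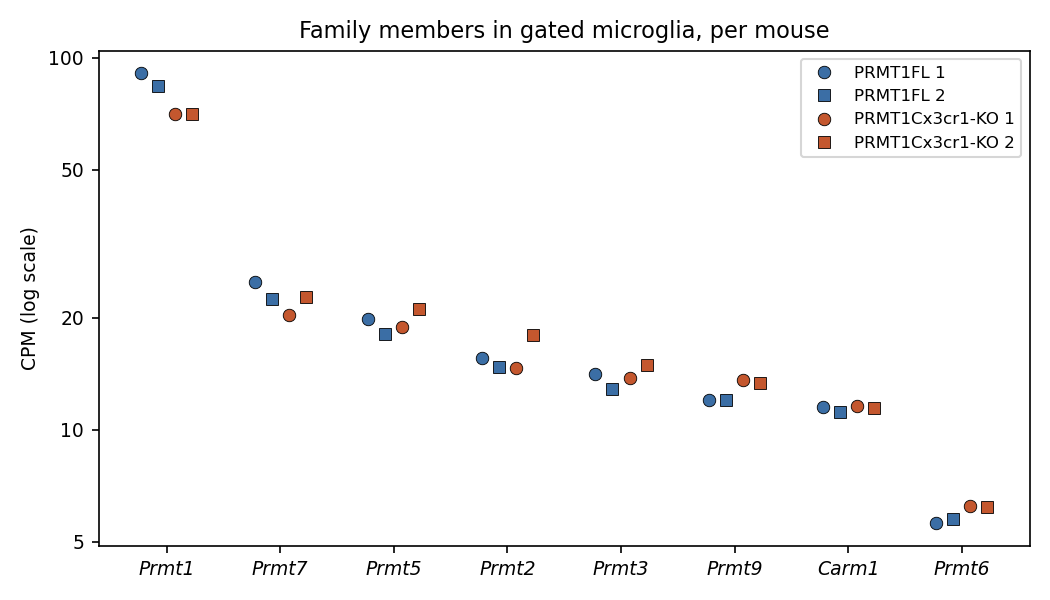
Level of each family member in gated microglia, in CPM on a log axis, with 1 point per mouse and colour for genotype. Prmt1 stands above all other members in every mouse, and its PRMT1Cx3cr1-KO points (70.6 and 70.7) lie below its PRMT1FL points (90.9 and 84.0), while the points of the 2 genotypes interleave or lie close together for the other members.

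Among the type I enzymes, Prmt2, a weakly active member that also acts with nuclear receptors, measured 15.6 and 14.8 CPM in PRMT1FL mice, against 14.6 and 18.0 in PRMT1Cx3cr1-KO mice. Prmt3, a cytosolic enzyme that methylates a protein of the small ribosomal subunit, measured 14.2 and 12.9 against 13.8 and 14.9. Carm1, which methylates histone H3 and transcriptional coactivators, measured 11.5 and 11.2 against 11.6 and 11.5. In these 3 genes the ranges of the genotypes overlapped. Prmt6, a nuclear enzyme that also methylates histone H3, measured 5.62 and 5.76 against 6.26 and 6.19, and both knockout mice were above both controls by a small margin.

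Of the type II enzymes, Prmt5, the main source of symmetric dimethylarginine, measured 19.8 and 18.1 CPM in PRMT1FL mice, against 18.9 and 21.2 in PRMT1Cx3cr1-KO mice. Prmt9, which methylates a splicing factor, measured 12.05 and 12.02 against 13.6 and 13.4. Prmt7, the type III enzyme, measured 25.0 and 22.6 against 20.4 and 22.7. Prmt5 and Prmt7 overlapped between the genotypes, and Prmt9 did not, with the knockout mice higher. Both Prmt6 and Prmt9 were thus higher without overlap, 2 of 7 paralogs, while 38.7% of all 13814 genes tested were higher without overlap on this scale and 17% were lower without overlap.

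None of the 7 paralogs passed the test between genotypes (edgeR, adjusted over all 13814 genes), and 0 were called by DESeq2 or voom. At an unadjusted p under 0.05 there was 1 of the 7, against 2713 of all 13814 genes. The log2 fold changes were 0.03 for Prmt2, 0.01 for Prmt3, -0.05 for Carm1, 0.00 for Prmt5, 0.06 for Prmt6 and 0.09 for Prmt9, with standard errors of 0.08 to 0.10. The signs of Prmt2, Prmt3, Carm1 and Prmt5 turned in at least 1 alternative setting each, while those of Prmt6, Prmt7 and Prmt9 held in all 15. The upper ends of the 95% intervals allowed increases of up to 1.19-fold for Prmt2, 1.15-fold for Prmt3, 1.10-fold for Carm1, 1.14-fold for Prmt5 and 1.21-fold for both Prmt6 and Prmt9. These limits hold under TMM. With library totals the differences were 0.10 for Prmt2, 0.08 for Prmt3 and Prmt5, 0.02 for Carm1 and 0.13 for Prmt6. Prmt9 was then at 0.17 and Prmt7 at -0.14, and no paralog passed. Under TMM, Prmt7 was the paralog furthest from 0, at -0.22 ± 0.08. It had an unadjusted p of 0.0275 and an adjusted p of 0.194 in edgeR's test, so it did not pass. Its interval, 0.756-fold to 0.978-fold, lay below 1 before adjustment.

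**Figure D2:**
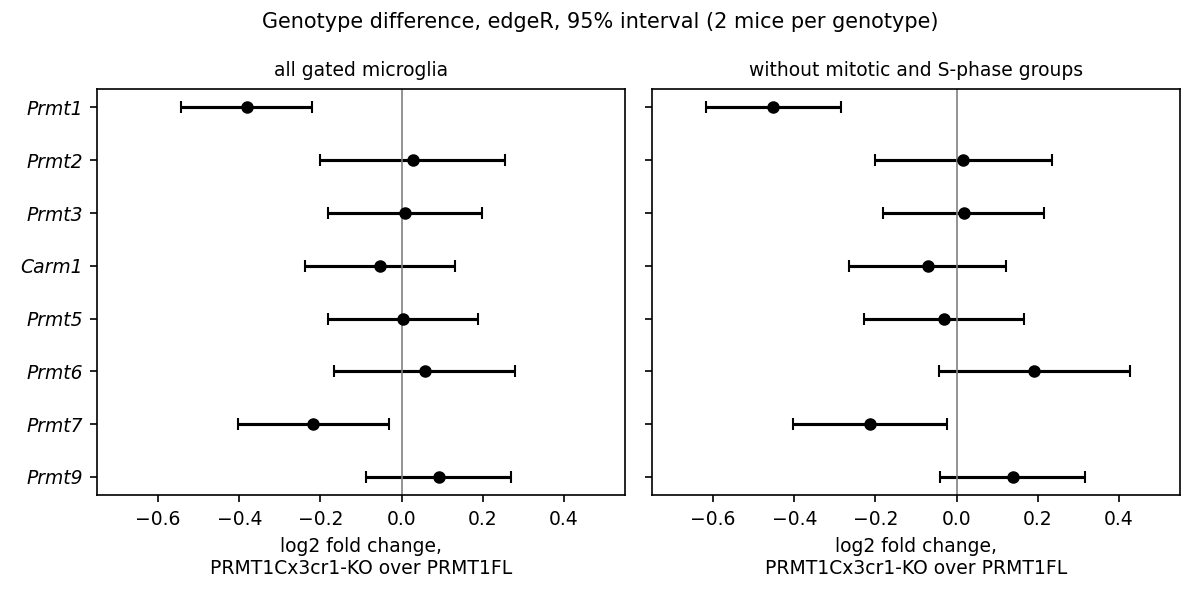
Log2 fold change of PRMT1Cx3cr1-KO over PRMT1FL for each member with its 95% interval from edgeR, in all gated microglia on the left and without the mitotic and S-phase groups on the right. Prmt1 is at -0.38 and -0.45, Prmt7 is at -0.22 and -0.21, and the intervals of the other 6 members include 0 in both panels.

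Cycling cells held more Prmt1, as described below. Mitotic microglia were more numerous in PRMT1Cx3cr1-KO mice, at 1205 and 1872 cells against 848 and 575 in PRMT1FL mice. The numbers of S-phase microglia overlapped between the genotypes, at 1318 and 1537 against 1333 and 1038. With mitotic and S-phase cells left out, the Prmt1 difference was -0.45 ± 0.07 (SE), a ratio of 0.731, and it passed the test (adjusted p = 0.0407 in edgeR, where 1.16% of 13063 genes passed). Prmt6 was at 0.19 ± 0.10 and Prmt9 at 0.14 ± 0.08 in those cells, with adjusted p-values of 0.348 and 0.372. No paralog passed there either. The part of the cell mix in the change of the Prmt1 difference was not tested.

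The family's UMIs can also be read as a whole. The 7 paralogs together gave 104 and 97.4 CPM in PRMT1FL mice, against 99.2 and 108 in PRMT1Cx3cr1-KO mice, and the ranges overlapped. Prmt1 alone made up 46.7 and 46.3% of the family's UMIs in PRMT1FL mice, against 41.6 and 39.6% in PRMT1Cx3cr1-KO mice, from 12887 to 16745 family UMIs per mouse. Prmt1 was the most counted member in all 4 mice, followed by Prmt7 and Prmt5, whose ranges over the mice overlapped. Prmt2, Prmt3 and Prmt9 followed, each overlapping its neighbour in that order. Carm1 came next, below Prmt9 in every mouse, and Prmt6 was lowest in every mouse. UMIs are taken from the 3′ end and are not scaled by transcript length, so this order describes molecules captured per gene.

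Single cells were sparse for every member. With each cell thinned to 3000 UMIs, Prmt1 had at least 1 UMI in 22.7 and 22.4% of PRMT1FL microglia and in 18.1 and 18.2% of PRMT1Cx3cr1-KO microglia. Without thinning the shares were 43.7 and 45.6% against 37.1 and 39.3%. The thinning left out 966 to 1859 shallower cells per mouse. The other members had a UMI in 1.63% (Prmt6) to 6.87% (Prmt7) of thinned cells. Counts of this size do not sort single cells into cells with and without the gene, since at the mean Prmt1 level of PRMT1FL replicate 1 a Poisson draw alone leaves 76.9% of thinned cells at 0, and 77.3% were at 0. Across the 4 mice the variance of the Prmt1 count over its mean was 1.03 in each.

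Deeply sequenced microglia gave a closer view. In the 1155 to 1583 cells per mouse with at least 15000 UMIs, thinned to that number, the mean Prmt1 count was 1.48 and 1.31 in PRMT1FL mice, against 1.12 and 1.14 in PRMT1Cx3cr1-KO mice. Cells with 0 Prmt1 UMIs made up 26.0 and 29.4% in PRMT1FL mice, against 33.6 and 35.8% in PRMT1Cx3cr1-KO mice. A Poisson draw at each mouse's mean gives 22.7 and 27.1% against 32.6 and 32.1%. The share at 0 was 1.0 to 3.72 percentage points above the Poisson share over these cells. In the deep cells that were not cycling the observed minus the Poisson share was 2.77 and 0.803 points in PRMT1FL mice, -0.28 points in PRMT1Cx3cr1-KO replicate 1 and 3.66 points in PRMT1Cx3cr1-KO replicate 2, so the excess was not shared by all mice. A count of 1 was the most frequent in PRMT1FL mice and in PRMT1Cx3cr1-KO replicate 1, and a count of 0 was in PRMT1Cx3cr1-KO replicate 2. Of these deep cells 52.1% to 69.6% were mitotic or S-phase, so they are not a sample of all microglia.

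**Figure D3:**
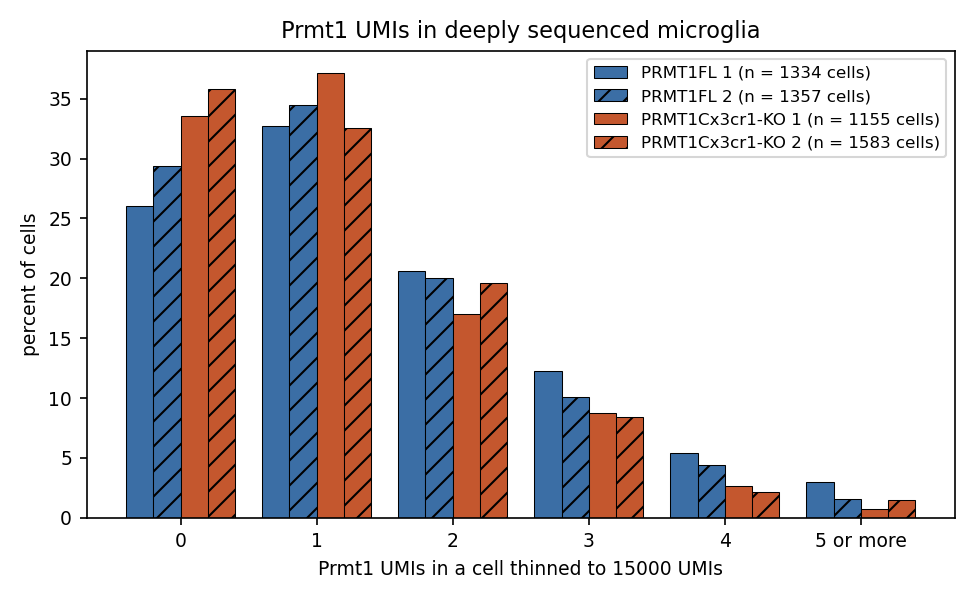
Percent of deeply sequenced microglia (1155 to 1583 cells per mouse, each thinned to 15000 UMIs) by their number of Prmt1 UMIs, with colour for genotype and hatching for replicate 2. The PRMT1Cx3cr1-KO bars are higher at 0 UMIs (33.6 and 35.8% against 26.0 and 29.4%) and the PRMT1FL bars are higher at 3 UMIs and above.

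Whether a paralog was higher in the very cells that lacked a Prmt1 UMI was read in the same cells thinned to 3000 UMIs. In PRMT1Cx3cr1-KO mice Prmt5 measured 17.7 and 19.98 CPM in cells without a Prmt1 UMI and 20.2 and 19.94 in cells with one. Prmt6 measured 6.65 and 5.36 without and 6.29 and 6.31 with, and Prmt9 14.7 and 14.4 without and 14.4 and 14.4 with. Neither direction was shared by both knockout mice in any of these 3 genes. Prmt3 did not share one either, at 13.9 and 15.1 without and 9.88 and 15.9 with. Prmt2 was higher in the cells without a Prmt1 UMI in both knockout mice, at 14.8 and 18.3 against 13.9 and 17.9, and lower in both control mice, at 15.8 and 13.4 against 17.3 and 15.1. Prmt7 and Carm1 were lower in the cells without a Prmt1 UMI in all 4 mice, for example 20.2 and 23.0 against 20.9 and 26.5 for Prmt7 in the knockout mice. Since most cells without a UMI can still hold the transcript, this split is a weak one, and no test was made on it.

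The microglia were divided into 8 disjoint groups by marker genes, which the family's own values did not enter. A cell was mitotic with at least 3 of 12 genes such as Mki67 and Top2a, and S-phase with 3 of 15 replication genes such as Mcm5 and Pcna. The next groups were interferon (3 of 10 genes such as Ifit3), MHC II (3 of Cd74 and the class II genes H2-Eb1, H2-Ab1 and H2-Aa), Ms4a7 (2 of Ms4a7, Clec12a and Gpnmb), Gdf15 (2 of Gdf15, Il7r and Pdlim4) and Itgax (the gene of CD11c). Gates were applied in the order given, and a cell joined the first group whose gate it passed. Itgax cells are thus only those that no earlier gate had taken, not all cells with Itgax. All other cells formed the remaining group, with 2826 to 4596 cells per mouse. Gdf15 held 95 to 512 cells per mouse, Ms4a7 72 to 529 and MHC II 125 to 956, the last with 125 in PRMT1Cx3cr1-KO replicate 2. A gate that asks for several detected genes favours deep cells, and the median UMIs per cell were 10102.5 to 12554 in the mitotic group and 4060 to 5009.5 in the remaining group.

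Prmt1 was highest in mitotic microglia. It measured 116 and 115 CPM in the mitotic cells of PRMT1FL mice and 90.2 and 89.1 in those of PRMT1Cx3cr1-KO mice. In the remaining cells of the same mice it measured 90.0 and 83.6 against 66.0 and 64.0. Mitotic cells were thus above remaining cells in all 4 mice. With the mouse as a block, the log2 fold change of mitotic over remaining cells was 0.47 ± 0.04 (SE), adjusted p = 2.48e-15 in edgeR over 11935 genes. In S-phase cells Prmt1 measured 100.3 and 89.6 against 77.2 and 73.7, and the log2 fold change was 0.22 ± 0.04 (adjusted p = 1.14e-05). With cells thinned to 2000 UMIs before gating, both differences were larger, 0.69 and 0.71, and both passed.

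**Figure D4:**
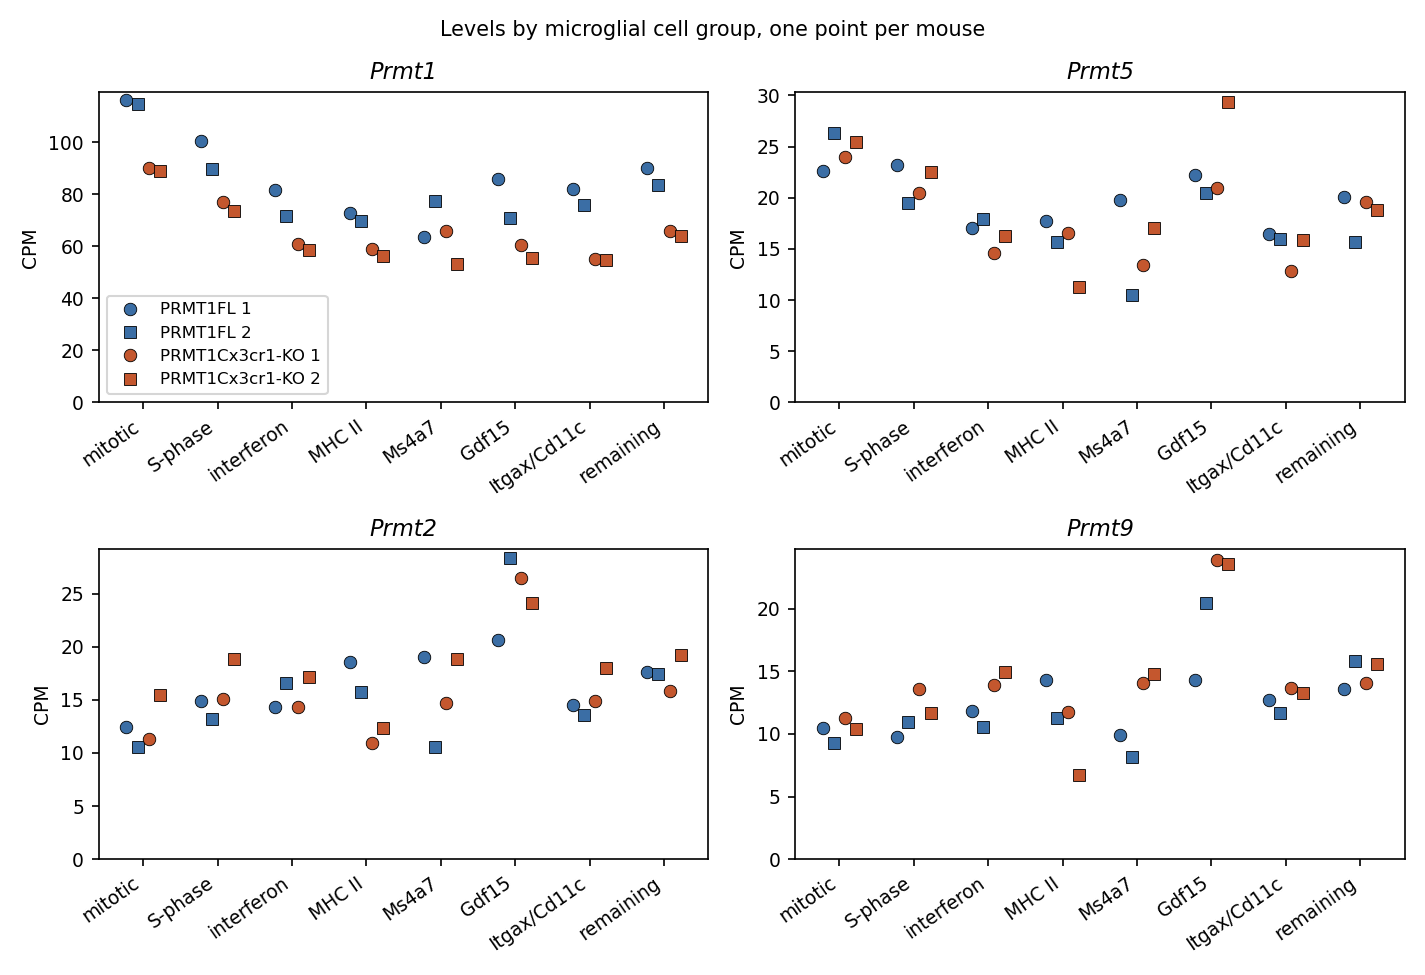
Level of Prmt1, Prmt5, Prmt2 and Prmt9 in each microglial cell group, in CPM from 0, with 1 point per mouse and colour for genotype. Prmt1 is highest in the mitotic group (116 and 115 against 90.2 and 89.1), and its PRMT1Cx3cr1-KO points lie below its PRMT1FL points in every group but Ms4a7.

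Prmt5 was also higher in mitotic cells. It measured 22.6 and 26.3 CPM in the mitotic cells of PRMT1FL mice and 23.9 and 25.4 in those of PRMT1Cx3cr1-KO mice, against 20.04 and 15.7 and then 19.5 and 18.8 in remaining cells. The log2 fold change was 0.43 ± 0.07 in mitotic cells (adjusted p = 2.27e-07, edgeR) and 0.25 ± 0.06 in S-phase cells (adjusted p = 0.0018). With cells thinned to 2000 UMIs, the Prmt5 difference was 0.24 in mitotic cells with an adjusted p of 0.281 and 0.35 in S-phase cells with an adjusted p of 0.294, so neither call held there.

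Other members were lower in mitotic cells. Prmt9 measured 10.5, 9.28, 11.3 and 10.4 CPM in the mitotic cells of PRMT1FL mice 1 and 2 and PRMT1Cx3cr1-KO mice 1 and 2, against 13.6, 15.8, 14.0 and 15.6 in remaining cells. Prmt2 measured 12.5, 10.6, 11.3 and 15.5 against 17.7, 17.4, 15.8 and 19.2. Both were lower in mitotic cells within each of the 4 mice. The log2 fold changes were -0.49 ± 0.09 for Prmt9 (adjusted p = 9.54e-06, edgeR) and -0.45 ± 0.09 for Prmt2 (adjusted p = 1.58e-05). Prmt6 was at -0.31 ± 0.11 (adjusted p = 0.0172), lower in 3 of 4 mice, and its call was lost without PRMT1FL replicate 2 (adjusted p = 0.0818) or PRMT1Cx3cr1-KO replicate 2 (adjusted p = 0.175). With cells thinned to 2000 UMIs Prmt9 was at -0.93 and still passed (adjusted p = 0.00134), and Prmt2 was at -0.41 and did not (adjusted p = 0.108). Prmt3, Carm1 and Prmt7 did not pass, at -0.03, -0.15 and 0.08.

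In S-phase cells 4 members passed in the upward direction, namely Prmt1, Prmt3, Prmt5 and Prmt7, and Prmt9 passed in the downward direction. Prmt3 measured 16.7, 14.8, 15.1 and 17.3 CPM against 15.15, 12.7, 15.11 and 13.5 in remaining cells, a log2 fold change of 0.22 ± 0.07 (adjusted p = 0.0139, edgeR). That call was lost without PRMT1FL replicate 1 (adjusted p = 0.0667) and without PRMT1Cx3cr1-KO replicate 2 (adjusted p = 0.149). With library totals in place of TMM Prmt3 was at 0.18 and did not pass (adjusted p = 0.0529). Prmt7 was at 0.20 ± 0.06 (adjusted p = 0.00264) and Prmt9 at -0.32 ± 0.09 (adjusted p = 0.00273). With cells thinned to 2000 UMIs, the calls of Prmt3 (0.50, adjusted p = 0.182), Prmt7 (0.10, adjusted p = 0.786) and Prmt9 (-0.13, adjusted p = 0.778) were lost.

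These counts stand against a wide background, since the cycling groups differed from remaining cells in a large share of all 11935 genes. In mitotic cells 28.6% of genes passed upward and 26.5% downward, and 2 and 3 of the 8 members did. In S-phase cells 20.6% passed upward and 16.5% downward, and 4 and 1 members did. The median log2 fold change of all genes was -0.01 in mitotic and 0.01 in S-phase cells.

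Outside the cycling groups few members differed from remaining cells. Prmt7 was lower in MHC II cells, at 17.8 and 17.0 CPM in PRMT1FL mice, against 11.8 and 18.0 in PRMT1Cx3cr1-KO mice, against 27.3 and 23.4 and then 21.0 and 21.6 in remaining cells. Its log2 fold change there was -0.41 ± 0.09 (adjusted p = 0.000569, edgeR), and it was the 1 member called downward, where 10.3% of all genes passed downward and 12.7% upward. Prmt7 was also lower in interferon cells, at -0.23 ± 0.07 (adjusted p = 0.0106), again the 1 member called, where 7.46% of genes passed downward and 10.5% upward. That call was lost without PRMT1FL replicate 1 (adjusted p = 0.165). With cells thinned to 2000 UMIs Prmt7 was at -0.31 in MHC II cells (adjusted p = 0.419) and -0.07 in interferon cells (adjusted p = 0.93), and neither call held. The values of Prmt7 were below those of remaining cells in all 4 mice in both groups.

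In Gdf15 cells Prmt9 measured 14.3, 20.5, 23.9 and 23.6 CPM against 13.6, 15.8, 14.0 and 15.6 in remaining cells, higher in all 4 mice. The PRMT1FL values rested on 9 and 13 Prmt9 UMIs. Prmt2 and Prmt5 were also higher in all 4 mice there. On the scale of library totals the median of all genes was 0.20 higher in these cells (log2). The log2 fold change of Prmt9 was 0.37 ± 0.14 (adjusted p = 0.0335, edgeR), the 1 member called upward where 13.5% of all genes were. The call was lost without PRMT1Cx3cr1-KO replicate 1 (adjusted p = 0.253) or replicate 2 (adjusted p = 0.271), and with cells thinned to 2000 UMIs (0.59, adjusted p = 0.153). With a gate of 5 genes for the mitotic and S-phase groups Prmt9 was at 0.24 and did not pass (adjusted p = 0.132). Prmt1 was called downward in Gdf15 cells at -0.36 ± 0.07 (adjusted p = 6.02e-05), where 14.9% of all genes were. With thinned cells Prmt1 was at -0.24 and did not pass (adjusted p = 0.353). No member was called in Ms4a7 cells, where 10.3% of genes passed upward and 7.77% downward, or in Itgax cells, where 9.31% passed upward and 6.75% downward. At an unadjusted p under 0.05, 0 members in Ms4a7 and 1 in Itgax cells (Prmt5, at -0.17) differed, and voom called 0 in both.

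Scaling bore on these smaller groups. Library totals in place of TMM, edgeR's scaling by a trimmed mean of log ratios, moved the median of all genes by -0.10 in interferon, -0.13 in MHC II, -0.15 in Ms4a7 and 0.19 in Gdf15 cells on the log2 scale. Under library totals Prmt1 in Gdf15 cells was at -0.17 and no longer passed (adjusted p = 0.0511). It was called lower in interferon (-0.15), MHC II (-0.25), Ms4a7 (-0.24) and Itgax cells (-0.17), where it did not pass in the main TMM fit. In MHC II cells Prmt1 also passed under TMM with a gate of 5 genes for the mitotic and S-phase groups (-0.16, adjusted p = 0.0147, edgeR). Prmt2 and Prmt5 in Gdf15 cells and Prmt5 and Prmt7 in Itgax cells also passed under library totals and not in the main fit. Prmt2 in Gdf15 cells passed as well with cells thinned to 2000 UMIs and with the gate of 5 genes. Prmt5 in Itgax cells passed as well without PRMT1FL replicate 2. The sign of Prmt1 in MHC II, Ms4a7 and Itgax cells turned with cells thinned to 2000 UMIs. The Prmt1 differences in mitotic and S-phase cells kept their sign and their call in each of these settings.

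**Figure D5:**
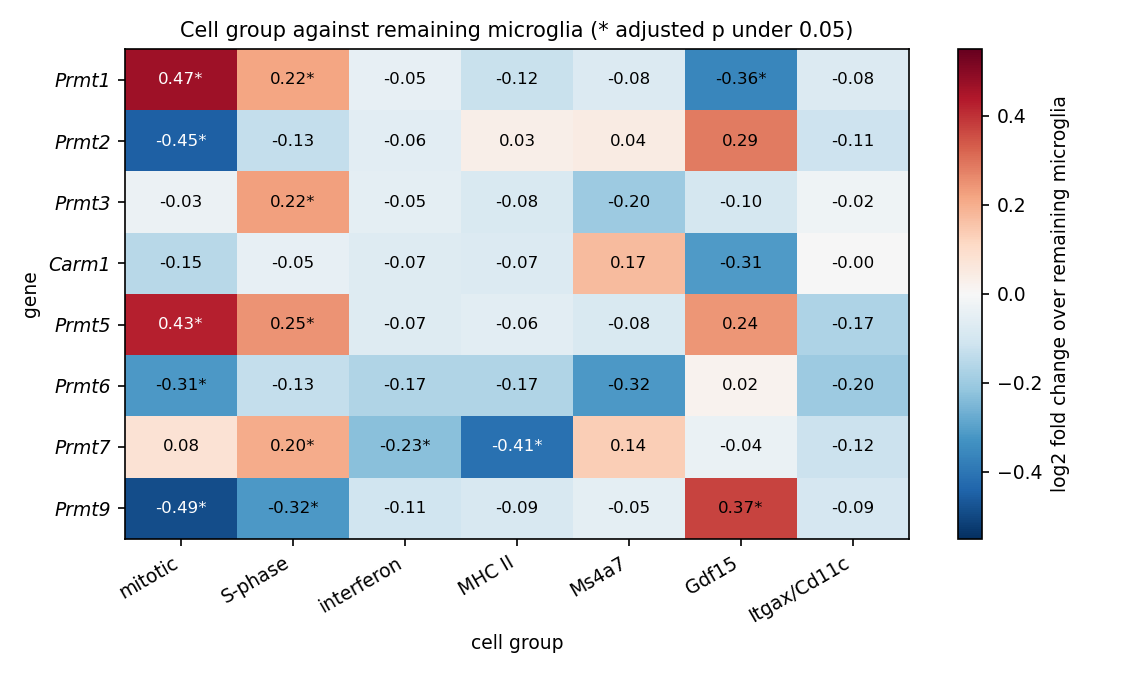
Log2 fold change of each family member in 7 microglial cell groups over the remaining microglia (edgeR with the mouse as a block), with an asterisk where the adjusted p is under 0.05. The asterisks gather in the mitotic and S-phase columns (5 members each), with 2 in the Gdf15 column, 1 each in interferon and MHC II, and none in Ms4a7 and Itgax.

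The genotype difference of Prmt1 was next read within each cell group, 1 sum per mouse. PRMT1Cx3cr1-KO mice were below PRMT1FL mice without overlap in 7 of the 8 groups. Of the paralogs, Prmt7 was lower without overlap in 4 groups, Prmt5 in 2, and Prmt2 and Carm1 in 1 each. Prmt9 was higher without overlap in 5 groups, Prmt6 in 3, Prmt2 in 2, and Prmt3 and Carm1 in 1 each. The remaining counts of the paralogs were 0. Over all pairs of a tested gene and a group, 16.8% were lower without overlap and 28.5% were higher. In Ms4a7 cells the Prmt1 values were 63.6 and 77.2 CPM against 65.7 and 53.3, from 66 to 235 Prmt1 UMIs per mouse, and they overlapped. The log2 fold changes of Prmt1 ran from -0.57 in Itgax cells to -0.33 in MHC II cells. The test passed in 4 groups, each fitted on its own with edgeR. These were Itgax cells (-0.57 ± 0.09, adjusted p = 0.000579, where 0.39% of all genes passed downward), remaining cells (-0.44 ± 0.08, adjusted p = 0.0267, 0.804%), mitotic cells (-0.41 ± 0.08, adjusted p = 0.0332, 0.261%) and interferon cells (-0.41 ± 0.09, adjusted p = 0.0341, 0.617%).

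S-phase cells, at -0.41 ± 0.09, missed the threshold with an adjusted p of 0.0508 (0.407% of genes passed downward). Gdf15 cells were at -0.47 ± 0.20 (adjusted p = 0.209, 1.78%), Ms4a7 cells at -0.35 ± 0.19 (adjusted p = 0.584, 0.24%) and MHC II cells at -0.33 ± 0.14 (adjusted p = 0.579, 0.049%). The MHC II group of PRMT1Cx3cr1-KO replicate 2 rested on 125 cells and 50 Prmt1 UMIs. With any 1 mouse left out, 1 genotype kept 1 mouse and its spread was not measured. All 8 log2 differences of Prmt1 were below 0 in each of these settings.

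Whether the genotype difference itself differed between groups was tested as an interaction in 1 model over all sums. None of the 56 pairs of a member and a group passed (edgeR, lowest adjusted p = 0.54, 1 pair at an unadjusted p under 0.05, and 0 pairs with voom), where 0.494% of all gene and group pairs did. For Prmt1 the interaction ran from -0.13 in Itgax cells to 0.10 in MHC II cells on the log2 scale, with 95% intervals of -0.31 to 0.05 and -0.16 to 0.35. The pair with an unadjusted p of 0.0343 was Prmt2 in MHC II cells, at -0.55 ± 0.25. Prmt2 measured 18.6 and 15.8 CPM in the MHC II cells of PRMT1FL mice and 10.9 and 12.4 in those of PRMT1Cx3cr1-KO mice. The PRMT1Cx3cr1-KO values rested on 25 and 11 Prmt2 UMIs. In the main fits within groups, Prmt6 had too few counts in Ms4a7 cells to be tested. Apart from this pair, no paralog passed the genotype test within any of the 8 groups (edgeR, 4 pairs of a paralog and a group at an unadjusted p under 0.05). These pairs were Prmt7 in S-phase, Itgax and remaining cells and Prmt2 in MHC II cells, each lower in PRMT1Cx3cr1-KO mice. With no filter on low counts 1 pair passed, Prmt7 in S-phase cells. The shares of all gene and group pairs at these limits were not computed.

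As a share of the family's UMIs, Prmt1 reached 53.9 and 54.1% in the mitotic cells of PRMT1FL mice and 47.1 and 45.8% in those of PRMT1Cx3cr1-KO mice. In Gdf15 cells it was 42.5 and 36.6% against 32.0 and 28.5%. Prmt1 was the most counted member in every group of every mouse.

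Cells outside the microglial gate were few. Border macrophages, which also express Cx3cr1, gave Prmt1 at 77.8 and 80.8 CPM in PRMT1FL mice (76 and 82 UMIs) and 52.8 and 62.9 in PRMT1Cx3cr1-KO mice (43 and 96 UMIs). Cells passing the oligodendrocyte gate, which had also passed a CD45 and CD11b sort, gave 92.0 and 90.3 against 60.9 and 73.9, from 104 to 170 UMIs. Both classes showed knockout mice below controls without overlap. The share of all genes doing so was not computed for these classes, and in microglia it was 17%. These gates did not ask that microglial markers be absent. The oligodendrocyte class had a median of 13662.5 to 20391.5 UMIs per cell, against 6242 to 7069 in microglia. Whether its cells were doublets with microglia was not tested. Cells of the astrocyte gate held 3 to 75 Prmt1 UMIs per mouse, too few to compare.

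Genes whose level moved most like Prmt1 were ranked over the 32 sums of a mouse and a cell group, each gene centred within its mouse. Among 5102 genes of at least 20 CPM outside the gates, the highest Pearson r with Prmt1 were those of the proteasome subunit Psmb2 (0.95), cytochrome c Cycs (0.95), the histone chaperone Set (0.94), the translation factor Eif5a (0.93), the RNA-binding protein Hnrnpab (0.93) and the nucleotide hydrolase Nudt5 (0.93). The lowest were Pnpla7 (-0.89), the purinergic receptor P2rx4 (-0.88) and transferrin Trf (-0.87). Of the paralogs, which were read whatever their level, Prmt5 (0.55) and Prmt7 (0.53) were the highest and Prmt2 (-0.42) the lowest. Sums of paralogs held as few as 3 UMIs (Prmt6 in Gdf15 cells), so their r is not directly comparable with that of the ranked genes. For Prmt5 the highest were the kinesin Kif5b (0.88), Trim28 (0.88), the segregase Vcp (0.85) and Ube2j2 (0.85). These are descriptions, since the 32 sums share mice and libraries and the groups differ in depth per cell.

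The pathway around the enzymes was read from 6 lists with 40 genes, of which 37 could be tested. Between genotypes 0 of the 37 passed in either direction (edgeR), where 0.956% of all genes did. At an unadjusted p under 0.05 there were 7, against 2713 of all 13814 genes. DESeq2 called 1, against 706 of 13814 genes, and voom called 0, against 51. With no filter on low counts 3 were called, against 1321 of 20171 genes. The median log2 fold change of the 37 genes was -0.03 against 0.00 over all genes. Of these, the largest differences by list were Adk, the adenosine kinase of the methyl cycle (0.39, adjusted p = 0.102), and Slc25a26, the mitochondrial S-adenosylmethionine carrier (0.20). Among Prmt5 partners they were Oip5 (0.72, adjusted p = 0.113) and Coprs (0.18), and among Prmt1 partners and regulators they were the antiproliferative genes Btg2 (-0.40) and Btg1 (-0.32). Among readers of methylarginine they were the survival of motor neuron gene Smn1 (0.42, adjusted p = 0.0831) and Spin1 (-0.23). Among genes that reverse or compete with methylation they were Jmjd6 (-0.23) and the deiminase Padi2 (-0.13), and among other arginine methyltransferases Ndufaf7 (0.14) and Mettl23 (-0.07). None of these passed, so these are values only. They come from all gated microglia, and mitotic cells were more numerous in PRMT1Cx3cr1-KO mice. Adk, Oip5, Coprs, Btg2, Btg1, Smn1, Jmjd6, Padi2 and Mettl23 had the same sign in mitotic against remaining cells. Slc25a26, Spin1 and Ndufaf7 had the opposite sign. The part of the cell mix in these differences was not tested.

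In mitotic against remaining cells 11 of the 37 genes passed upward and 8 downward, where 28.6% and 26.5% of all genes did, and their median was 0.07 against -0.01 over all genes. The methyl donor list had 4 of 11 up and 2 down, led by Ahcy, which clears the inhibitory product S-adenosylhomocysteine (1.61 ± 0.15, adjusted p = 9.98e-14, edgeR), and Adk (0.92 ± 0.09). Prmt5 partners had 3 of 6 up and 0 down, led by Oip5, a centromere protein gene (5.18 ± 0.25), and Lyar (0.65 ± 0.06). Prmt1 partners had 1 of 6 up and 2 down, the latter being Btg2 (-0.88 ± 0.10) and Btg1 (-0.56 ± 0.06). Wdr77, the obligate partner of Prmt5 in the methylosome, was at 0.15 and did not pass. It was named after its value was seen.

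Readers had 2 of 9 up and 2 down, led by Phf1 (-1.10 ± 0.10) and Smn1 (0.45 ± 0.05). The reversing list had Ddah2, which breaks down free methylarginines, up (0.52 ± 0.08) and Padi2 down (-0.38 ± 0.09) of 3 tested. Of the other arginine methyltransferases Ndufaf7 was down (-0.25 ± 0.06), Mettl23 was at -0.05 and Prmt8, a brain paralog of Prmt1, had too few counts to test. In S-phase cells 13 of the 37 passed upward and 8 downward, where 20.6% and 16.5% of all genes did. Ahcy was up there as well (0.44), and Ddah2 was down (-0.34), the opposite of its direction in mitotic cells.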

How the data were processed

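Single-cell 3′ libraries (10x Genomics) of 4 mice were used. The authors deposited raw UMI counts per gene and barcode, made with Cell Ranger 3.1.0 on mm10 per the file headers and labels. Counts were not normalized.

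Cells with 200 to 6000 detected genes and at most 10% mitochondrial UMIs were kept. Microglia had at least 3 of 10 microglial markers and fewer than 3 markers of each of 7 other classes. UMIs were summed per mouse, and per mouse and cell group where at least 20 cells were present. Levels are CPM, UMIs per 1000000 UMIs of the sum. Genotype was tested with edgeR 4.0.16 (filterByExpr, TMM, robust quasi-likelihood), cell groups and interactions with the mouse as a block, and p-values were adjusted by Benjamini-Hochberg over all genes tested. limma 3.58.1 (voom) and DESeq2 1.42.0 were alternatives. Fits were tested on simulated data. Standard errors of the genotype tests cover the spread between 2 mice per genotype. With 1 mouse left out, they hold no spread for the genotype that keeps 1 mouse. Those of the cell group and interaction tests cover the spread of sums around each mouse's own level, pooled over the cell groups. Numbers of UMIs limit precision for counting error only.

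The 8 members are all described, and pathway genes are named as the 2 with the largest change in each list. The genes, lists and groups were chosen with earlier results of these data known. Genes most like Prmt1 were ranked on the log2 scale after adding an offset of 1. Library totals in place of TMM, and leaving out mice within cell groups, were added after seeing the data.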

Additional observations from a re-analysis of the deposited data

How the results depend on the processing

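The number of genes called between genotypes moved with the setting, from 132 to 1321 with no filter on low counts, 706 with DESeq2, 51 with limma voom, 886 in all cells without the microglial gate and 228 with library totals in place of TMM. Leaving out 1 mouse gave 4 to 2301. The cause of these changes was not tested. Each fit without 1 mouse held the same number of mice. The log2 difference of Prmt1 passed the threshold with no filter (-0.37, adjusted p = 0.000436), with DESeq2 (-0.38, 0.00124), without the gate (-0.35, 0.0373) and in non-cycling cells (-0.45, 0.0407), and without 1 mouse it ran from -0.44 to -0.33. Over the alternatives that kept all 4 mice, adjusted p-values of Prmt1 ran from 0.000436 (edgeR with no filter) to 0.0865 (limma voom). With the replicate number as a block, 632 genes were called and Prmt1 was at -0.38 (adjusted p = 0.0167). The numbers only name the mice, and deviations of same-numbered mice had a correlation of -0.05 over 7192 genes.

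Signs turned for differences that had not passed. Leaving out 1 mouse moved Prmt2 between -0.10 and 0.15, Prmt3 between -0.0551 and 0.0764 and Prmt5 between -0.0577 and 0.0675. Without PRMT1FL replicate 2 Prmt2 was at -0.010, Prmt3 at -0.0551 and Prmt5 at -0.0577, and without PRMT1Cx3cr1-KO replicate 2 they were at -0.10, -0.0237 and -0.0513. Carm1 was at 0.0214 with library totals, and Prmt5 at -0.0318 in non-cycling cells and -0.00196 with a gate of 5 markers. With cells thinned to 2000 UMIs Prmt1 was at 0.0405 in MHC II, 0.11 in Ms4a7 and 0.11 in Itgax cells.

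Of the 14 calls of a member in a cell group, 3 remained with thinned cells (Prmt1 in mitotic and S-phase and Prmt9 in mitotic cells). There 4 were made over 7874 genes, the added one being Prmt2 in Gdf15 cells. For cell groups the share of all genes called was computed in the main fit only. Some lost calls had larger log2 differences with thinned cells than in the main fit, and others had smaller ones. Carm1 and Prmt6 had too few counts to be tested with thinned cells. Voom kept all 14, library totals kept 12 of them among 20, and leaving out 1 mouse gave 11 to 14. Within cell groups Prmt1 was called in 5 of 8 with no filter and in 0 to 5 without 1 mouse. No interaction of a member was called in the 6 alternatives run.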
